A study of Mus musculus with 23 samples.

Results

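The expression of 9 genes of the Hippo pathway and its effectors YAP and TAZ was examined across 23 clonal mouse preadipocyte lines. They were the genes of both coactivators, Yap1 and Wwtr1, of the DNA-binding partner Tead1, of the upstream regulators Lats2, Ajuba and Amotl2, and of the target genes Ankrd1, Axl and Tnfrsf12a. The 9 genes are among 18194 genes with a probe set that names 1 gene, and all 9 were among the 12308 that passed the filter on low values. They were chosen by their expression on these arrays, with the differences between the types of line already known, so their levels by type are a description and carry no test. A gene with several probe sets is given by the brightest of them, on average over the 23 lines.

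The lines were derived from stromal vascular cells, those left when the fat cells of adipose tissue are removed, of subcutaneous (clone names SCF) and perigonadal (PGF) fat of 1 male Immortomouse aged 8 weeks. In this strain the cells carry a temperature-sensitive viral T antigen under an interferon-inducible promoter, which lets them divide in culture. After 2 passages 190 single cells were sorted without a gate, and clones were expanded at 33 °C in the presence of interferon gamma (10 units/mL). Each line is 1 clone and was measured on 1 array from 250 ng of total RNA. The submitters clustered the lines by expression into Type 1 (3 lines, all PGF), Type 2 (4 SCF and 1 PGF), Type 3 (4 SCF and 4 PGF) and Other (4 SCF and 3 PGF). All lines carry the same immortalising transgene, and p-values measure the spread between clones of 1 mouse. Each line also has a score for lipid accumulation after induction, called the differentiation score, which was 2, 3 or 4 in these lines, and a score for acidification of the medium. The sources used here do not say whether RNA was taken before or after induction. The late adipocyte gene Adipoq was under the filter, with group means between 3.10 and 3.68 and its highest Type 3 line at 6.48. Cd36 was also under the filter. Lpl was high, with group means of 11.92 to 12.24, and those of Fabp4 ran from 3.66 in Type 1 to 9.07 in Type 2.

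The Hippo pathway is a kinase cascade in which STK3 and STK4 activate LATS1 and LATS2, which phosphorylate YAP and TAZ and keep them out of the nucleus. Unphosphorylated YAP and TAZ enter the nucleus, bind TEAD factors and switch on genes of growth, adhesion and the cytoskeleton. Several of those genes, among them LATS2 and AMOTL2, feed back to restrain the pathway's own output, and in mesenchymal progenitors TAZ is known to hold back the adipogenic factor PPARG.

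TEAD factors recognise the hexamer GGAATG, read as CATTCC on the opposite strand. Promoters of 8 of the 9 genes were in the RefSeq table used (assembly GRCm38.p6, from 250 bases before to 50 bases after each start site), Tead1 being the exception. The 6 shown here were picked because they belong to the regulators and targets whose levels are followed below. Every GGAATG or CATTCC is in capitals. The windows are Lats2 (chr14:57746074-57746373, minus strand), Ajuba (chr14:54577612-54577911, minus strand), Amotl2 (chr9:102717554-102717853, plus strand), Ankrd1 (chr19:36119795-36120094, minus strand), Axl (chr7:25788684-25788983, minus strand) and Tnfrsf12a (chr17:23677400-23677699, minus strand).
Lats2: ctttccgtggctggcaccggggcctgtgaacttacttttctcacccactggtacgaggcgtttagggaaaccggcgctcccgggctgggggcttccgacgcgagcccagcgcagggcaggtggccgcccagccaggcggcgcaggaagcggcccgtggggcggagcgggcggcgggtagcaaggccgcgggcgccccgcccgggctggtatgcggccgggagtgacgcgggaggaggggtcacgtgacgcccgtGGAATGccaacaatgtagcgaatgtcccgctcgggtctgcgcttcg
Ajuba: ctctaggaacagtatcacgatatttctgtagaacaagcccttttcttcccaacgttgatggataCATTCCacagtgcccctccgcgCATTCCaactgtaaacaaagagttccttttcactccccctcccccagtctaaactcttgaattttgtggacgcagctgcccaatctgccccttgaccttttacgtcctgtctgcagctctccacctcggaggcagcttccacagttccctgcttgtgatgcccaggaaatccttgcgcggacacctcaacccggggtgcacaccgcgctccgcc
Amotl2: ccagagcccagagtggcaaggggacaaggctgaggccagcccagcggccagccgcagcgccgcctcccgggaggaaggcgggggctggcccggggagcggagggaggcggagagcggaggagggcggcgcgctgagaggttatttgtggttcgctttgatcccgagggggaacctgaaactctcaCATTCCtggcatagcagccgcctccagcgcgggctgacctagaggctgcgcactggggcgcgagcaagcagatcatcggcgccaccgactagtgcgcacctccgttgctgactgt
Ankrd1: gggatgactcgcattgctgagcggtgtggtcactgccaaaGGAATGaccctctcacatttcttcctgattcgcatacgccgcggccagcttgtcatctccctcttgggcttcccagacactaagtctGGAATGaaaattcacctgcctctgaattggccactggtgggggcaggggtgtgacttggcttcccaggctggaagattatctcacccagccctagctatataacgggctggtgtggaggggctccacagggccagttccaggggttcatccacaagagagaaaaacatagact
Axl: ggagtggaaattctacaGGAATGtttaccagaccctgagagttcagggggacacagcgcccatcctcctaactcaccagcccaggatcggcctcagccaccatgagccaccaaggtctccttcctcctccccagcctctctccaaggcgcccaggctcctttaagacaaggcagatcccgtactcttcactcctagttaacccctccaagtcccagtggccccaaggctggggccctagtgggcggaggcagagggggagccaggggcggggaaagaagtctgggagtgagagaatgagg
Tnfrsf12a: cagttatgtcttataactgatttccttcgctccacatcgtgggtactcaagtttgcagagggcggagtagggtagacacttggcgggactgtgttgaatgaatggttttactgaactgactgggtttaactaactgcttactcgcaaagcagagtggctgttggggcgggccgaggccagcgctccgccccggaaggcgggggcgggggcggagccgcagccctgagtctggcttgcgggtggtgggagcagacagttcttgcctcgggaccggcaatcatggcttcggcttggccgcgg
The hexamer began at position -210 and again at -123 from the start site of Ankrd1, at -186 and -164 in Ajuba, at -65 in Amotl2, at -233 in Axl and at 5 in the first of the Lats2 windows. It also lay at -141 in Yap1 and in both overlapping windows of Wwtr1. At least 1 match was thus present in 7 of 8 genes, Tnfrsf12a being without one, while 14.7% of all 32851 promoter windows of the same length held it, or 16.6% of 27025 genes. Among the other YAP and TAZ target genes with a promoter in the table, 4 of 14 held it. Of the other gene lists followed below, it was in 4 of 16 Hippo genes and 3 of 5 TEAD and VGLL genes. It was also in 5 of 12 genes of the actin cytoskeleton and targets of SRF, 2 of 4 mesothelial genes and 0 of 9 adipocyte lineage genes. The AP-1 motif TGANTCA, searched on both strands, was in 0 of the 8 genes and in 7.81% of all windows. These are matches of letters in one window, and binding was not measured.

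Yap1, which encodes YAP, was the most even of the 9 genes. Its level, in log2 signal as for all levels below, lay between 10.48 and 10.86 over the 23 lines. The SD was 0.107, and only 1.6% of the genes tested had a lower one. The group means were 10.79 ± 0.07 in Type 1 (SD, n = 3), 10.70 ± 0.14 in Type 2 (n = 5), 10.67 ± 0.11 in Type 3 (n = 8) and 10.72 ± 0.08 in Other (n = 7). All 4 groups overlapped, and no neighbours in that order differed beyond their spread. A second probe set of Yap1 was less even, with an SD of 0.316, and correlated with the first at 0.468 over 23 lines.

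Wwtr1, which encodes TAZ, was high in Type 1. The 3 Type 1 lines read 11.18, 10.78 and 11.02, and the 5 Type 2 lines 9.98, 10.24, 10.14, 10.02 and 10.13. Type 3 ran from 9.60 through a median of 9.99 to 10.80, and Other from 9.69 through 10.16 to 10.67. Type 1 thus lay above every Type 2 and Other line and was crossed by 1 Type 3 line, line 4, which stood alone at 10.80 while the next Type 3 line was at 10.13. The mean of Type 1 was higher than that of Type 3 by 0.95, or 1.94-fold, against a pooled SD of 0.32, and Types 2, 3 and Other were within 0.12 of each other. All 3 probe sets of Wwtr1 gave the highest mean in Type 1.

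Tead1, the TEAD factor in the set, was also highest in Type 1, at 11.19, 11.52 and 11.51. The Type 2 lines read 10.79, 11.02, 10.93, 10.89 and 10.40. The 8 Type 3 lines spanned 10.28 through a median of 10.66 to 11.14 and Other from 10.48 through 10.75 to 11.45. Type 1 was apart from Types 2 and 3, and Other line 7, at 11.45, fell within its range. The mean difference from Type 3 was 0.73 (pooled SD 0.24), a 1.66-fold difference.

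Ajuba encodes a LIM-domain protein that binds the LATS kinases and restrains them. Its levels were 9.68, 10.09 and 10.15 in Type 1 and 9.04, 8.52, 9.10, 8.74 and 8.52 in Type 2. Levels in Type 3 went from 7.63 through a median of 8.17 to 8.42, and Other from 7.98 through 8.36 to 8.76. The groups were therefore stepped: every Type 1 line was above every other line, every Type 2 line was above every Type 3 line, and Other overlapped both Types 2 and 3. Mean levels were 9.97 ± 0.25 in Type 1, 8.78 ± 0.28 in Type 2, 8.40 ± 0.27 in Other and 8.10 ± 0.27 in Type 3. Type 1 was 3.66-fold above Type 3, and Type 2 was 1.61-fold above it.

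Lats2, the kinase that inactivates YAP and TAZ and also one of their target genes, differed less between groups. The Type 1 lines read 8.62, 9.16 and 9.23, and the Type 2 lines 8.73, 8.57, 9.00, 8.80 and 8.45. Type 3 ran from 8.03 through a median of 8.51 to 8.85, and Other from 8.47 through 8.73 to 9.64. The highest line of all was Other line 7, and every group overlapped every other. Group means were 9.00 ± 0.33, 8.71 ± 0.21, 8.42 ± 0.30 and 8.86 ± 0.42 in Type 1, Type 2, Type 3 and Other. Of 6 probe sets for Lats2, 3 were under the filter and the other 3 had their lowest mean in Type 3.

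Amotl2, an angiomotin-family protein that tethers YAP at cell junctions and is induced by it, ran the other way in Type 1. The Type 1 lines read 9.97, 11.10 and 11.02, and the Type 2 lines 11.72, 11.47, 11.61, 11.50 and 10.98. In Type 3 the lines lay from 10.73 through a median of 11.47 to 11.66 and Other from 11.02 through 11.42 to 11.99. Type 1 had the lowest mean, 10.70 ± 0.63, with 1 line below all others and 2 lines inside the range of Type 3. The mean difference from Type 3 was -0.62 over 3 lines and -0.26 without Type 1 line 1. That line was the lowest Type 1 line for 8 of the 9 genes, all but Wwtr1, and it had the widest gap between 3' and 5' actin probe sets, a measure of RNA integrity, at 1.58 against 0.53 to 1.00 in the other lines, and the part of this gap in the level was not tested.

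Ankrd1, a nuclear cofactor and a classical YAP target, was the most variable member. The Type 1 lines read 6.57, 8.98 and 7.59, and the Type 2 lines 5.70, 6.97, 7.89, 8.21 and 7.82. The 8 Type 3 lines spanned 4.65 through a median of 5.48 to 6.71, and Other from 4.35 through 7.48 to 9.24. The span over all lines was 29.8-fold, and 98.3% of the genes tested had a smaller SD. Type 3 had the lowest mean, 5.62 ± 0.80, against 7.72 ± 1.21 in Type 1, 7.32 ± 1.02 in Type 2 and 7.36 ± 1.67 in Other. Each of those groups had at least 1 line within the Type 3 range, and the order among them was within the spread: leaving out Type 1 line 2 turned the difference of Type 1 from Type 2 from 0.40 to -0.24. The second Ankrd1 probe set followed the first, with a correlation of 0.984 over 23 lines.

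Axl, a receptor tyrosine kinase that binds GAS6, was lowest in Type 1 and highest in Other. The Type 1 lines read 10.17, 10.24 and 10.32, and the Type 2 lines 10.98, 10.85, 10.90, 10.86 and 10.78. Levels in Type 3 went from 10.00 through a median of 10.57 to 10.97 and Other from 10.60 through 10.84 to 11.33. Type 1 was apart from Type 2 and from Other and within the range of Type 3. Its mean was lower than that of Type 2 by a difference of -0.63, or 1.55-fold, while both groups had a spread of 0.08. A second Axl probe set was under the filter, at 2.45 to 3.33 in all lines, and gives no check.

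Tnfrsf12a encodes FN14, the receptor of the cytokine TWEAK. Its levels were 10.69, 10.88 and 11.09 in Type 1 and 11.11, 11.04, 11.12, 10.72 and 10.49 in Type 2. Type 3 ran from 9.47 through a median of 9.93 to 10.30 and Other from 9.43 through 10.47 to 10.96. Types 1 and 2 shared one range and lay above every Type 3 line. Their means were 10.89 ± 0.20 and 10.90 ± 0.28, and that of Type 3 was 9.87 ± 0.30, differences of 1.01 (2.02-fold) and 1.02. The Other lines were spread over the whole span, with lines 2, 4 and 6 between 9.43 and 9.63 and the remaining 4 between 10.47 and 10.96. The second probe set correlated with the first at 0.998.

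**Figure D1:**
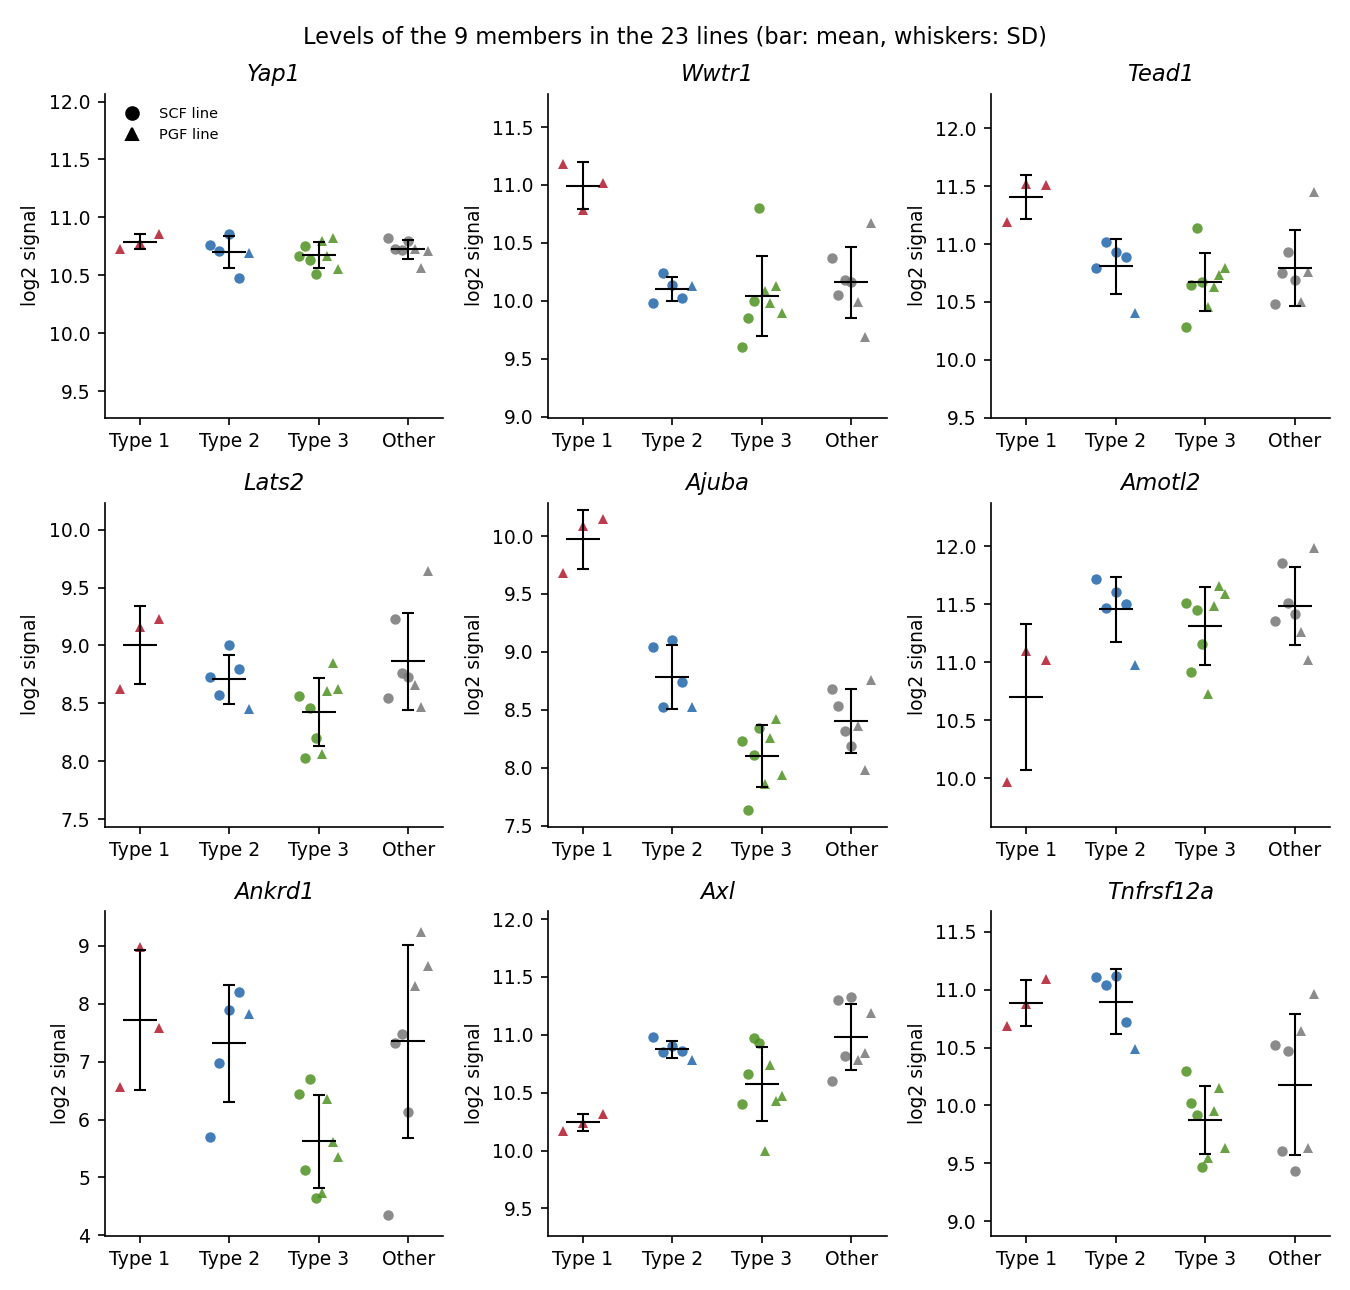
Level of each of the 9 genes (log2 signal) in the 23 lines by group; circles are SCF lines, triangles PGF lines, bars the mean and whiskers the SD, and the Ankrd1 panel has a wider axis than the rest. Type 1 stands above all other lines for Ajuba, Types 1 and 2 stand above Type 3 for Tnfrsf12a, and Yap1 stays between 10.48 and 10.86.

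Set side by side, the differences from Type 3 had a different make-up in each group, all 3 sets using the same 8 Type 3 lines. In Type 1, 7 of 9 means were above Type 3 and 2 below, from 2.09 for Ankrd1 to -0.62 for Amotl2. In Type 2 the differences were 1.70 for Ankrd1 (pooled SD 0.88), 1.02 for Tnfrsf12a (0.29) and 0.69 for Ajuba (0.27), and those of the remaining genes were 0.30 or less. In Other, Ankrd1 differed by 1.73 with a pooled SD of 1.27, Lats2 by 0.44 and Axl by 0.41. The ranges of Type 1 and Type 3 did not overlap for 3 of 9 genes (Ajuba, Tead1 and Tnfrsf12a, all higher), as for 29% of all genes tested. Those of Type 2 and Type 3 did not overlap for Ajuba and Tnfrsf12a, as for 3.28% of all genes. Since the 9 genes were selected on these contrasts, nothing is read from those counts.

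**Figure D2:**
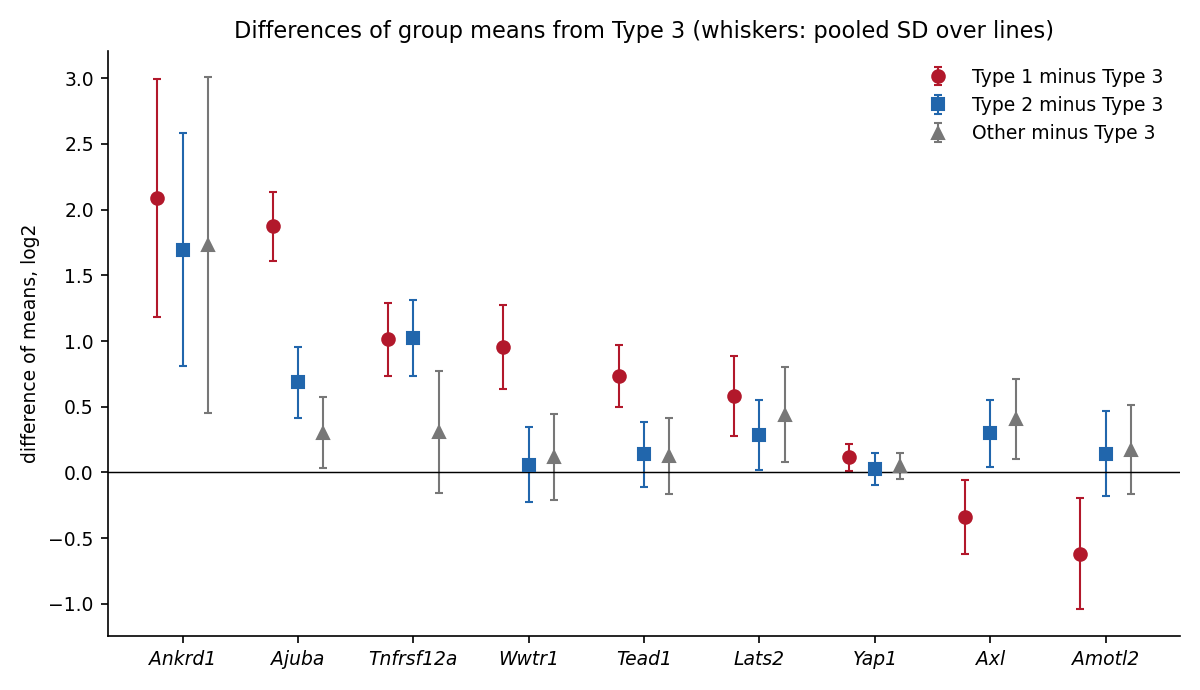
Difference of the mean level of Type 1, Type 2 and Other from that of Type 3 (log2) for each of the 9 genes; whiskers are the pooled SD over lines, and the same Type 3 lines enter all 3 differences. Ajuba, Wwtr1 and Tead1 stand out in Type 1, Tnfrsf12a is at 1.01 in Type 1 and 1.02 in Type 2, and Amotl2 and Axl are below 0 in Type 1.

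The rest of the pathway was followed in 46 other genes that passed the filter: Hippo kinases and adaptors (18), TEAD and VGLL factors (5) and further YAP and TAZ target genes (23). Between Type 1 and Type 3, 24 of the 46 (52.2%) passed the test (limma, Benjamini-Hochberg adjusted p under 0.05 over all 12308 genes), 16 higher and 8 lower in Type 1, where 34.7% of all genes passed. Gli2, 1 of the 16, passed the filter only through the Type 1 lines. The median difference of the Hippo list was 0.16, of the TEAD and VGLL list -0.34 and of the target list 0.58, against 0.01 over all genes. Between Type 1 and Type 2, 11 were higher and 7 lower, with 25.2% of all genes passing.

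Among the Hippo genes, 6 rose and 2 fell in Type 1. Wwc1 and Wwc2, KIBRA and its paralog, scaffolds that help activate the LATS kinases, were higher by 2.00 ± 0.18 (SE; limma adjusted p = 1.59e-08) and 1.33 ± 0.14 (adjusted p = 1.56e-07). Stk4, the upstream kinase MST1, was higher by 1.51 ± 0.16, while its scaffold Sav1 was lower by a difference of -0.93 ± 0.12. The kinase and its scaffold thus moved in opposite directions. For Wwc1 the Type 1 lines read 7.99, 8.16 and 8.48, above all others, of which the highest was Type 2 line 1 at 7.04. Lats1, the sister kinase of Lats2, was among the 10 Hippo genes that did not pass.

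No TEAD or VGLL gene rose in Type 1, in contrast to the level of Tead1. All 5 differences were below 0, and 2 passed. Vgll3, a cofactor that binds TEAD and is known as an inhibitor of adipogenesis, was lower by a difference of -1.18 ± 0.20 (limma adjusted p = 7.81e-05). Vgll4, a TEAD corepressor, was lower by -0.67 ± 0.21 (adjusted p = 0.0153), but by only -0.37 without Type 1 line 1, when it did not pass (adjusted p = 0.211). Tead2, Tead3 and Tead4 did not pass, and Vgll2 was under the filter.

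The target genes split in Type 1, with 10 of 23 higher and 4 lower. Edn1, the vasoconstrictor peptide endothelin 1, read 7.33, 7.06 and 7.34 in the Type 1 lines and no more than 5.48 in any other line, a difference from Type 3 of 2.33 ± 0.14 (limma adjusted p = 1.54e-11). Dock5, a RAC activator, was higher by 2.41 ± 0.22. Asap1, an ARF GTPase activator of focal adhesions, was lower by -1.31 ± 0.15, and Thbs1, a matricellular glycoprotein, was 3.99-fold lower (SE 0.30 on the log2 scale). The direction of Amotl2 and Axl, lower in Type 1, was therefore shared by some target genes and opposed by more of them. Tgm2, Nuak2 and Ccn2 were singled out after their values were seen. Tgm2, a transglutaminase, was higher by 4.74 ± 0.71 (adjusted p = 2.21e-05), and the kinase gene Nuak2 was lower by -0.96 ± 0.21 (adjusted p = 0.0011). Ccn2, connective tissue growth factor and a much used readout of YAP, read 11.88, 12.39 and 12.21 in Type 1 and 5.40 to 10.14 in Type 3, a difference of 3.92 ± 1.00 (adjusted p = 0.00419).

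Between Type 2 and Type 3, 0 of the 46 genes passed in limma, where 0.382% of all genes did, and 13 had an unadjusted p under 0.05, as did 2163 of all 12308 genes (17.6%). The gene nearest to the threshold was Ccn1, the sister of Ccn2, at 1.17 ± 0.29 (limma adjusted p = 0.0717). Its 5 Type 2 lines lay between 11.56 and 11.91 and the Type 3 lines between 9.65 and 11.14, without overlap. Ptpn14, a phosphatase that binds YAP, followed with -0.42 ± 0.11 (adjusted p = 0.0843). Ccn2 differed by 3.13 ± 0.84 (adjusted p = 0.0877), with 4 Type 2 lines at 11.52 to 11.87 and line 5, the PGF line of Type 2, at 9.82. Without Other line 7, which enters only through the shared estimate of the spread, Ccn1 passed (limma adjusted p = 0.0171), as did Ccn2 (0.03), and 3 of the 46 genes did in all. The share of all genes that passed without that line is not given, so nothing about the pathway is read from this count. Ccn1 also passed without Other line 4 (0.0479), with depot in the model (0.0477), in the 16 lines of the 3 types (0.0128) and with array weights (0.00592), and Ccn2 under the last pair (0.0253 and 0.00555). Between Other and Type 3, 0 of 46 genes passed, as did 0% of all genes (1082 of 12308 had an unadjusted p under 0.05, and 4 of the 46).

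**Figure D3:**
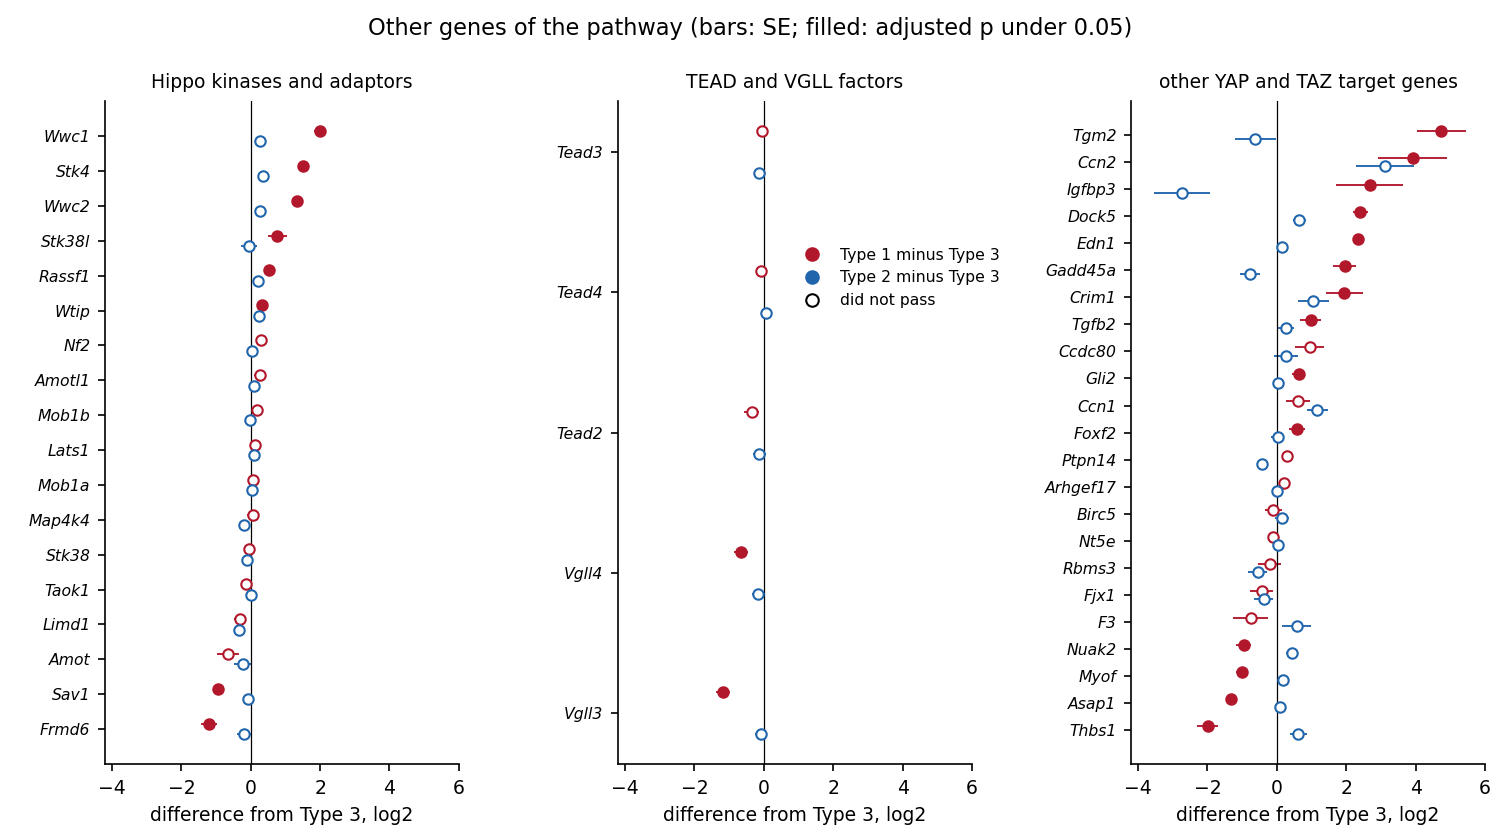
Difference from Type 3 (log2, limma, bars SE) of Type 1 (red) and Type 2 (blue) for the 46 other pathway genes in 3 lists; filled points passed at an adjusted p under 0.05, and both comparisons use the same Type 3 lines. In Type 1, 24 genes passed in both directions, with Tgm2, Ccn2 and Igfbp3 farthest above 0 and Thbs1 farthest below, and in Type 2 none is filled. The Igfbp3 call was lost without Type 1 line 1 (limma adjusted p = 0.157) or line 3 (0.101).

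The ligands and sister receptors of Axl were compared in the same way. Gas6, the ligand of AXL, averaged 9.94 in Type 1 and 9.98 in Type 3 and did not pass (difference -0.04 ± 0.79, limma adjusted p = 0.976). Pros1, protein S, a ligand of the sister receptors, was lower in Type 1 by -3.32 ± 0.34 (adjusted p = 1.19e-07), at 6.73, 7.67 and 7.28 against at least 8.74 in any other line. Tyro3 was lower by -0.24 ± 0.09 (adjusted p = 0.0336), a call that was lost when any 1 of the Type 1 lines was left out (adjusted p 0.0614 to 0.113), without Type 3 line 3 (0.0514) or line 7 (0.0547), and under 3 other alternatives. Mertk was under the filter.

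Genes of the actin cytoskeleton and targets of SRF, which respond to the same cell shape cues as YAP, were followed beside them. In Type 1 against Type 3, 8 of 13 passed as higher and 1 as lower, where 34.7% of all genes passed. Among the higher ones was the smooth muscle gene Tagln at 4.63 ± 0.84 (limma adjusted p = 0.000209). In Type 2 against Type 3 none of the 13 passed, and 12 of 13 differences were above 0, with a median of 0.60 against -0.01 over all genes. Of these 9 had an unadjusted p under 0.05, as did Mrtfb below 0 (-0.27), against the 17.6% of all genes given above. The list was also summed on the unlogged scale, where its brightest genes weigh most. This sum, in log2, lay between 14.72 and 15.18 in Type 2, without overlap with 13.63 to 14.42 in Type 3. It lay between 14.70 and 15.61 in Type 1 and 13.52 and 15.83 in Other. Their part in the levels of Ajuba and Tnfrsf12a was not tested.

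Markers of other cell types differed in Type 1 as well. Of 8 mesothelial genes, 7 had a higher mean in Type 1 than in Type 3. Krt19 had a lower one, 5.49 against 6.33, and Krt8 ran from 5.17 to 11.09 within Type 1. Summed in the same way, the 8 genes gave 13.87 to 14.48 in Type 1 against 7.32 to 9.98 in the other 20 lines. Since 6 of the 8 passed the filter only through the Type 1 lines, no count of tests is given for them. The mesothelial surface gene Lrrn4 averaged 11.02 in Type 1 and 2.93 in Type 3. Of 11 adipocyte lineage genes tested, 8 passed as lower in Type 1 than in Type 3, as did 1950 of all 12308 genes. Pparg averaged 4.71 ± 0.89 in Type 1 and 7.98 ± 0.51 in Type 3. The leukocyte genes Ptprc, Adgre1 and Itgam and the endothelial genes Pecam1, Cdh5, Emcn and Vwf were under the filter. The tested genes of those lists went both ways in Type 1 against Type 3. Of 3 macrophage genes Cd68 was higher by 1.30 ± 0.43 (limma adjusted p = 0.0242) and Csf1r lower by a difference of -1.85 ± 0.70 (adjusted p = 0.0453). Without Type 1 line 1 neither passed (0.80 and -1.35, limma adjusted p = 0.23 and 0.238). The Csf1r call was also lost without Type 1 line 3, Type 2 line 3, 4 or 5, Other line 1 or 6 or any Type 3 line but line 4, and under 3 other alternatives. Of the endothelial genes Kdr was higher by 2.19 ± 0.45 (limma adjusted p = 0.000683) and Tek lower by a difference of -2.92 ± 0.77 (adjusted p = 0.00545). The pericyte gene Mcam, which passed the filter only through Type 1, was higher there by 1.63 ± 0.41. The part of these markers in the Type 1 levels of the 9 genes was not tested. All 3 Type 1 lines are PGF, and among PGF lines alone Ajuba lay at 9.68 to 10.15 in Type 1 and 7.86 to 8.76 in the other 8, and Wwtr1 at 10.78 to 11.18 and 9.69 to 10.67.

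The 9 genes were next set against the differentiation score. They were chosen with earlier results of these data known, so p-values for the score are not independent evidence. With group in the model, 0 of the 9 genes passed in limma, as did 0% of all genes (smallest adjusted p 0.315, 872 of 12308 with an unadjusted p under 0.05). The slopes of 8 of 9 genes were below 0, with a median of -0.15 per point against 0.01 over all genes. Of these, 4 had an unadjusted p under 0.05. Some of the 9 genes went together over the lines (below), so these signs are not separate observations. Both such a p and a slope below 0 were found for 354 of all 12308 genes (2.88%). Lats2 had -0.25 ± 0.07 per point (SE; limma unadjusted p = 0.00273, adjusted p = 0.449). Amotl2 had -0.27 ± 0.09 (limma unadjusted p = 0.00488, adjusted p = 0.511). For Tead1 the slope was -0.18 ± 0.07 and for Ajuba -0.15 ± 0.07 (limma adjusted p = 0.608 and 0.685). Wwtr1 had the only slope above 0, at 0.04 ± 0.08, which was -0.03 without Type 3 line 4. None of these slopes held after correction.

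The pattern behind those slopes was clearest for Amotl2 outside Type 1. Lines with score 2 lay between 11.45 and 11.99 (mean 11.66 ± 0.19, SD, n = 8), lines with score 3 between 10.92 and 11.59 (11.33 ± 0.26, n = 7) and lines with score 4 between 10.73 and 11.47 (11.12 ± 0.28, n = 5). The score 2 and score 4 lines thus touched only at their edges, while the 3 Type 1 lines, all of score 2, lay below at 9.97 to 11.10. For Lats2 the corresponding means were 8.93 ± 0.36, 8.51 ± 0.23 and 8.39 ± 0.25. Tead1 averaged 10.95 ± 0.24 at score 2, 10.61 ± 0.18 at score 3 and 10.61 ± 0.25 at score 4. When each line was left out in turn, the slope of Lats2 stayed between -0.28 and -0.21 and that of Amotl2 between -0.32 and -0.24, none of them past the threshold. Without group in the model the slope was -0.13 for Amotl2 and -0.40 for Ajuba, and from the mean of its probe sets that of Lats2 was -0.135.

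**Figure D4:**
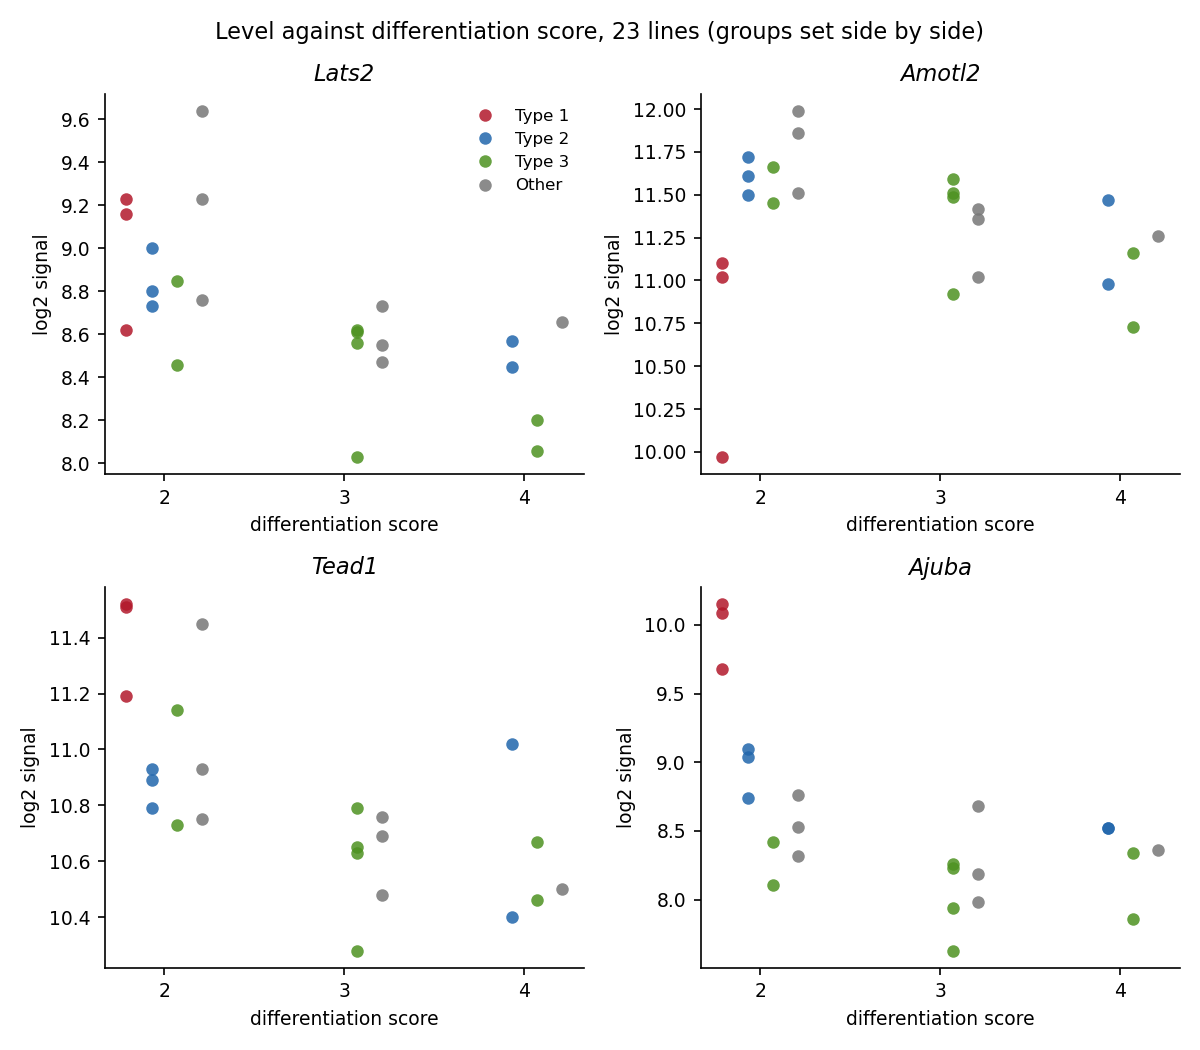
Level (log2 signal) of Lats2, Amotl2, Tead1 and Ajuba against the differentiation score of each line, with the 4 groups set side by side at each score. Lines of score 2 tend to be highest outside Type 1, with Amotl2 at 11.45 to 11.99 at score 2 and 10.73 to 11.47 at score 4, and the Type 1 lines stand low for Amotl2 and high for Ajuba.

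Of the 46 other pathway genes, 0 passed for the differentiation score, while 4 had an unadjusted p under 0.05, namely 1 Hippo gene (Nf2) with a slope above 0 and 3 target genes with a slope below. Nuak2, 1 of those 3, had -0.25 ± 0.07 per point (limma adjusted p = 0.43), and -0.06 without group in the model. Of the 13 actin and SRF genes, 12 had slopes below 0, with a median of -0.26 against 0.01 over all genes. None passed (6 had an unadjusted p under 0.05), and their part in the slopes of the 9 genes was not tested. For the media acidification score, 0 of the 9 genes and 0% of all genes passed in limma (1516 of 12308 had an unadjusted p under 0.05, and 0 of the 9).

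Depot of origin was tested with group in the model. Between PGF and SCF, 0 of the 9 genes passed in limma, as did 0% of all genes, and 0 of the 9 had an unadjusted p under 0.05 (1034 of 12308 genes did). The estimates ran from -0.20 ± 0.11 for Axl to 0.93 ± 0.51 for Ankrd1. In the observed levels, the depot difference of Ankrd1 was not alike in Other and Type 3, which did not hold after correction (below). In Other the 3 PGF lines read 8.30, 9.24 and 8.65 and the 4 SCF lines 4.35, 7.33, 7.48 and 6.13, without overlap. In Type 3 the PGF mean was 5.51 ± 0.67 and the SCF mean 5.74 ± 1.00, with overlapping lines. The depot effect in Type 3 minus that in Other was -2.63 ± 0.95, which did not hold after correction (limma unadjusted p = 0.015, adjusted p = 0.534), as for 0% of all genes (956 of 12308 had an unadjusted p under 0.05). The other 8 genes had interaction terms between -0.51 and 0.22.

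The 9 genes were also set against each other after centring each gene within its group, so that the types do not enter. The Pearson correlation over the 23 lines was above 0 in 30 of the 36 pairs, with a median of 0.26 and a range of -0.38 to 0.89. These values are descriptions, since all lines share a mouse and each array enters every pair. No such count or median was taken over pairs of all genes. The count of 30 and the median are therefore not read as particular to the 9 genes. The closest pair was Lats2 and Amotl2, at 0.888. It was 0.955 within Type 3 (n = 8, rank correlation 0.952) and 0.946 within Other (n = 7, rank correlation 0.964), and without the 2 lines farthest from the median of Lats2 it was 0.96 and 0.859. Ajuba joined them less closely, at 0.719 with Amotl2 and 0.696 with Lats2, but without the 2 farthest lines Ajuba and Lats2 stood at 0.063 in Type 3 and 0.114 in Other, so their relation within those groups rests on these lines. Over the 23 lines without centring, Ajuba and Amotl2 stood at -0.21. Centred over the 23 lines, no partner of Yap1 or Wwtr1 exceeded 0.383 in size, and their correlations with Ankrd1 were below 0 (-0.36 and -0.38). Within single groups some values were larger and differed between groups. Wwtr1 stood at 0.375 with Ajuba in Type 3 and 0.849 in Other, and at -0.664 and 0.639 with Tnfrsf12a. Yap1 stood at -0.023 with Ankrd1 in Type 3 and -0.828 in Other.

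**Figure D5:**
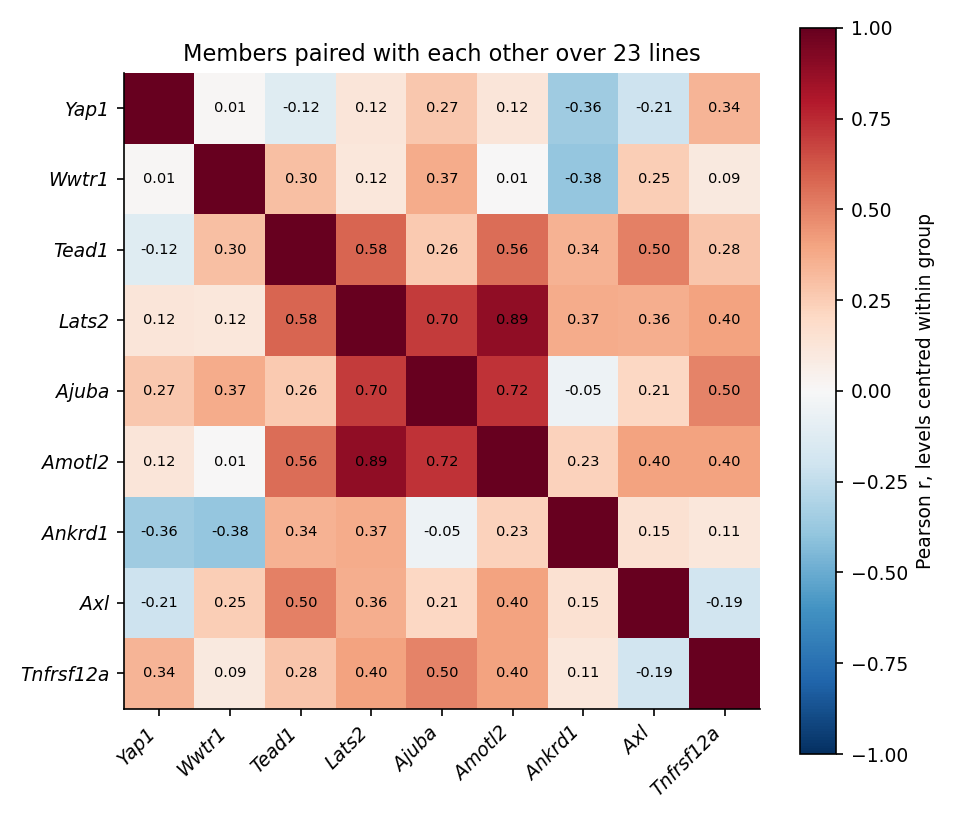
Pearson correlation of each pair of the 9 genes over the 23 lines after each gene's levels were centred within Type 1, Type 2, Type 3 and Other (red above 0, blue below). Lats2 and Amotl2 are the darkest pair at 0.89, Ajuba stands at 0.70 and 0.72 with them, and Yap1 lies between -0.36 and 0.34 with every partner.

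Over all genes that passed the filter, those with the pattern most like each of the 9 were found by Pearson correlation over the 23 lines, which includes the differences between types. For Ajuba they were Wwc2 (0.921), Skil (0.917) and Pik3cb (0.911), and Wwc2 is itself one of the Hippo genes above. Without the Type 1 lines the value for Wwc2 was 0.693 and for Skil 0.85. For Amotl2 they were Ptchd4 (0.874), the target gene Nuak2 (0.861) and Inhba (0.832). Since Nuak2 was picked here by its correlation with Amotl2 over the same lines, its shared Type 1 direction and score slope sign are no separate finding. For Tnfrsf12a they were Nop16 (0.911), Rrp8 (0.903) and Ppan (0.898), and without Type 1 these stayed at 0.914, 0.908 and 0.889. For Wwtr1 the closest was Jmy (0.915), for Axl Swap70 (0.863), for Tead1 Cdc42bpa (0.847), for Lats2 Plk3 (0.815) and for Ankrd1 Atf7ip (0.754). For Yap1, with its narrow range, it was Clec2e at 0.677. Plk3 with Lats2 (0.846) and Swap70 with Axl (0.827) kept similar values without the Type 1 lines.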

How the data were processed

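RNA of 23 lines was measured on 1-colour mouse arrays of 45101 probe sets. The authors deposited log2 signal values, made with MAS5 per the submitters' processing notes. No header states the scale, and log2 was read from the range of the values. Array medians were 5.09 to 5.16, so the deposited values were used unchanged. Their number limits the precision. A single symbol was listed for 34958 probe sets, several for 932 and none for 9211, and 34754 were matched by Entrez ID to RefSeq (0 symbols changed). A gene was tested where 3 or more lines exceeded the median of the whole table (5.13).

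Comparisons used limma 3.58.1 (lmFit and eBayes; R 4.3.3) over all 23 lines with group in the model, with Benjamini-Hochberg adjustment and a threshold of 0.05. The depot interaction used the lines of Type 3 and Other. Since types came from clustering of expression, p-values between them are not independent evidence. The members and gene lists were chosen with earlier results of these data known. All members are named. Open to naming were up to 4 genes per list and comparison that passed, otherwise the 2 with the smallest p, and the genes most like each member. Not all of these are named, and some further genes are given beside them. On simulated data with the 12308 genes, a 2-fold difference was recovered for 75% of changed genes between Types 1 and 3 and for 86% between Types 2 and 3. A slope of 0.5 per differentiation point was recovered for 85%. The observed slopes of Lats2 (-0.25) and Amotl2 (-0.27) were smaller in size, and no recovery is given for such slopes. These shares are taken over all changed genes and do not show how often a difference in a single gene would be found. Ccn1 and Ccn2 did not pass between Types 2 and 3 at 1.17 ± 0.29 and 3.13 ± 0.84 (SE). A result that did not pass is therefore not read as the absence of a difference. Alternatives were the probe set, filter, centring, quantile normalization, an offset of 32, array weights, the clone-name number, depot, the lines in the fit and leaving out each line. Plots used Python 3.11.15 with matplotlib 3.10.9.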

Additional observations from a re-analysis of the deposited data

Results flagged for a closer look

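Of 27 sets of levels (9 genes in Type 2, Type 3 and Other), 2 held a line far from the rest, and chance alone marks about 1 in 20 such sets. For Wwtr1, Type 3 line 4 was the highest of 8 lines at 10.80, and its gap to the next line was 0.554 of the whole range against a critical value of 0.526. That line is SCF with a differentiation score of 4. For Yap1, Other line 6 was the lowest of 7 lines at 10.56, with a gap of 0.593 of the range against 0.568, on a gene whose whole range over the 23 lines was 0.38.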

How the results depend on the processing

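The count of other pathway genes that passed between Type 2 and Type 3 was 0 and became 9 with array weights, 5 in the 16 lines of the 3 types and 1 with depot in the model. Leaving out each line in turn gave 0 to 3, with 3 without Other line 7 and 1 without Other line 4. The other alternatives kept 0. The cause was not tested, and the estimation of array weights gave convergence warnings in some fits. The share of all genes that passed under these settings is not given. These counts are therefore not read as a result about the pathway. Between Type 1 and Type 3 the count of 24 ran from 22 to 30, and from 19 to 26 when a line was left out. Between Type 1 and Type 2 the count of 18 ran from 16 to 24. Counts of 0 for Other, depot and both scores stayed at 0 under every alternative run. No sign of a passed or widely separated difference was turned. Of the type differences of the 9 genes, 12 values moved by more than the pooled SD and 1181 did not. They include Yap1 (Type 1 minus Type 3, 0.40 with its second probe set), Tead1 (1.00 with its second probe set), Lats2 (0.24 with another probe set) and Axl (Type 1 minus Type 2, -0.48 with depot in the model). No paired analysis was possible because no label links single lines across groups. With the clone-name number, shared by several lines of a group, as a factor, the counts of 24 and 18 became 23 and 16 and those of 0 stayed. Alternatives were not planned or run for the depot interaction.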

Other observations

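Among the YAP and TAZ target genes, Igfbp3 and Gadd45a had differences from Type 3 of opposite sign in Types 1 and 2, and were picked after their values were seen. Igfbp3, a binding protein of insulin-like growth factors, averaged 11.87 ± 0.96 in Type 1 (SD, n = 3), 6.47 ± 1.11 in Type 2 (n = 5), 9.19 ± 0.98 in Type 3 (n = 8) and 8.46 ± 2.23 in Other (n = 7). The lowest Type 1 line, at 10.84, was above the highest Type 3 line, at 10.79, and no Type 2 line was above 7.77, just under the lowest Type 3 line at 7.79. Type 1 minus Type 2 was 5.40 ± 1.04 (SE; limma adjusted p = 0.000506), higher in 3 of 3 Type 1 lines. Type 1 minus Type 3 was 2.67 ± 0.96 (limma adjusted p = 0.0352) and no longer passed without Type 1 line 1 (2.23, adjusted p = 0.157) or line 3 (adjusted p = 0.101), nor without Type 3 line 2, 4 or 8. Type 2 minus Type 3, at -2.72 ± 0.81, did not pass (limma adjusted p = 0.112), but did with array weights (0.0193) and in the 16 lines of the 3 types (0.0129).

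Gadd45a, a stress and DNA damage response gene, averaged 8.57 ± 1.13 in Type 1, 5.86 ± 0.42 in Type 2 and 6.62 ± 0.32 in Type 3. Type 1 was above Type 2 by 2.72 ± 0.36 (SE; limma adjusted p = 8.1e-06) and above Type 3 by 1.95 ± 0.34 (limma adjusted p = 0.000123), while Type 2 minus Type 3 was -0.77 ± 0.28 and did not pass (adjusted p = 0.175).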
